A study of Rattus norvegicus with 12 samples.

Results

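Axon guidance cues and their receptors were followed in rat kidney and in a cultured kidney tissue as 55 genes, chosen by symbol from 14217 genes with a single symbol in the platform annotation. They are the ephrins, the Eph receptors, the semaphorins, the plexins and neuropilins, the slits and robos, and netrins with their receptors. Each gene was read from the probe set with the highest mean signal over the 12 Affymetrix arrays. Recombined tissue, on 2 arrays, joined non-branched ureteric buds (UBs) formed in vitro with metanephric mesenchyme (MM) and was kept in culture for 6 days. E13 stands for rat kidneys of embryonic day 13 (3 arrays), E18 for those of day 18 (4 arrays), and Wk4 for kidneys taken 4 weeks postnatally (3 arrays). No treatment of the kidneys is named, the embryonic ones were used straight after dissection, and strain, litters and the number of animals or cultures per array are not given in the labels. The p-values therefore measure the spread between arrays, which may be technical. The sample labels call the buds non-branched, while the title of the series as a whole speaks of a budded WD-MM recombination, and the labels used here do not settle how the names relate. The study's question was whether the recombined tissue takes the normal developmental route, and it looked at genes that differed by 3-fold or more.

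Guidance cues were first known from the steering of axons and also act on cell sorting, branching and vessel growth. Slits are secreted ligands of the Robo receptors, and netrins are secreted ligands of Dcc, which mostly attracts, and of the Unc5 receptors, which repel. Ephrins are bound to the membrane, so that they and the Eph receptor tyrosine kinases signal only where cells touch. Semaphorins are secreted or membrane-bound and act through plexins, with neuropilins as co-receptors for most of the secreted class. In the mouse, Slit2 and Robo2 limit where the ureteric bud grows out, a known place of these families in kidney formation.

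The signal is a linear intensity after a scaling that gave every array the same trimmed mean, and array medians were 799 to 1020.3. A level below is a signal with its SD over the arrays of its group, differences are given as log2(signal + 271) with their SE, and p-values were adjusted over the 22599 probe sets fitted in limma. A gene was called, and is said to have risen or fallen, at an adjusted p under 0.05 together with a difference of at least 3-fold, or 1.58 on this scale. The pseudocount of 271 draws in differences, most of all those of dim genes. Under 3-fold below means on this scale, and some such differences were called with no pseudocount. Of 6 kidney markers 5 were measured, with 0 called in recombined tissue against E13 and 3 lower than at E18, and Wt1, a transcription factor of nephron progenitors and podocytes, ran from 11563 to 13911 in recombined tissue, 18116 to 28347 at E13, 15039 to 19823 at E18 and 2324 to 2476 at Wk4. Embryonic arrays did not vary independently of each other. After each group's mean was removed, E13 replicate 1 correlated with E18 replicates 1 to 3 at 0.31, 0.25 and 0.27 over all kept probe sets. With E18 replicate 4 it correlated at -0.60, while E13 replicates 2 and 3 correlated with E18 replicate 4 at 0.41 and 0.38. Deviations from a group's own mean cancel within the group, so the opposite signs are partly built in and these values are not separate evidence. The recombined arrays also differed from each other. The summed signal of 11 neural and Schwann markers was 43877 in recombined replicate 1 and 15242 in replicate 2, and that of 9 endothelial markers was 6272 and 14970.

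Of the 55 guidance genes, 47 passed a filter that kept probe sets above the 40th percentile of their array on at least 2 arrays, and only these were tested. The other 8 were Epha5, Epha8, Epha10, Ephb1, Dcc, Unc5a, Sema3a and Sema4d. By family, 8 of 12 Eph receptors, 3 of 5 netrins and receptors and 15 of 17 semaphorins passed, as did all 10 plexins and neuropilins, all 6 slits and robos and all 5 ephrins. In at least 1 of the 6 comparisons of the 4 groups, 19 of the 47 were called, or 40.4%, against 29.1% of all 11913 genes tested in the same way. By family these were 3 of 5 ephrins, 2 of 3 netrins and receptors, 4 of 8 Eph receptors, 3 of 6 slits and robos, 3 of 10 plexins and neuropilins and 4 of 15 semaphorins.

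Most calls between stages came with Wk4, and more of them were falls than rises. At Wk4 against E18, 7 guidance genes fell and 2 rose, and the 9 calls were 19.1% of the 47, where 13.8% of all genes were called (7.1% higher and 6.68% lower). At Wk4 against E13, 9 fell and 5 rose, or 29.8%, where 21.3% of all genes were called (11.9% higher and 9.46% lower). The median difference of the guidance genes was -0.79 at Wk4 against E18 and -0.55 at Wk4 against E13, beside -0.15 and -0.07 for all genes. At E18 against E13, 1 of 47 rose and 0 fell. By limma, 8 were higher and 5 lower at an adjusted p under 0.05, and 11 and 9 at an unadjusted p under 0.05. All but the 1 called were under 3-fold, and the share of all genes at these p limits alone was not counted. The gene that rose was Sema3b, which passed the filter through E18 and Wk4 arrays alone. That single call is 2.13% beside 3.02% of all genes (2.65% higher and 0.369% lower), and the median difference was -0.02 beside 0.03. Without E13 replicate 1 the count at E18 against E13 was 2, with Sema3g (1.66) added. With no pseudocount it was 3, with Ntn1 (1.59) and Sema3g (1.63) added. The comparisons of the stages share their arrays, so their counts are not independent of each other. Markers of several cell types moved over the same stages. Both nephron progenitor markers measured, Eya1 and Meox1, fell at Wk4 against E18 and E13, with a summed signal of 17133 to 24575 at E13, 7103 to 8289 at E18 and 1157 to 1291 at Wk4. All 5 proximal tubule markers rose at Wk4, with 1116 to 2230.2 at E13, 25321 to 35163 at E18 and 309419.9 to 345993 at Wk4. Of 10 neural and Schwann markers tested, 4 fell at Wk4 against E13 and 1 against E18, and the 11 measured summed to 11967 to 14657 at E13, 9523 to 10937 at E18 and 3572 to 4608 at Wk4. Of 8 stroma and matrix markers, 2 fell and 1 rose at Wk4 against E13, and 2 fell against E18. The part of these markers' cells in the guidance genes' changes was not tested.

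**Figure D1:**
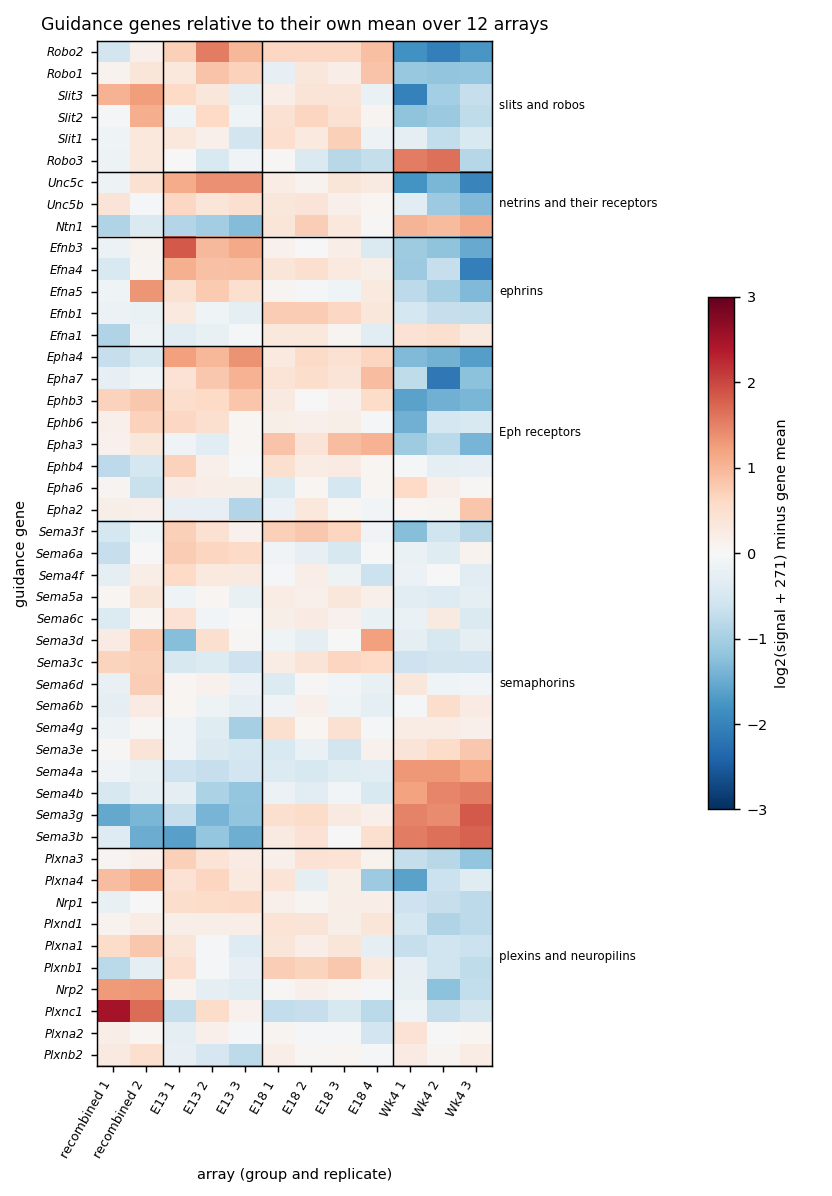
Each row is 1 of the 47 tested guidance genes and each column 1 array, in the order recombined, E13, E18 and Wk4; the colour is log2(signal + 271) minus the gene's mean over the 12 arrays. In most slit, robo, ephrin and Eph receptor rows the 3 Wk4 columns are the lowest, while Sema3b, Sema3g, Sema4a, Sema4b and Ntn1 are highest there.

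In recombined tissue, 1 guidance gene was higher and 1 lower against E13, and 1 and 1 against E18. These are 4.26% in each case, a share near that of all genes, where 6.08% of all genes were called against E13 (5.03% higher and 1.05% lower) and 5.46% against E18 (3.1% higher and 2.37% lower). The higher gene was Plxnc1 in both cases, which passed the filter through the 2 recombined arrays alone and so was tested only because it was high there. Against Wk4, 8 were higher and 4 lower, or 25.5% beside 18.3% of all genes (8.93% higher and 9.33% lower). The median difference was 0.10 against E13, -0.07 against E18 and 0.58 against Wk4, beside -0.03, -0.08 and 0.14 for all genes. On the log2 scale the mean of recombined tissue was nearest to E18 for 22 of the 47 genes, to E13 for 15 and to Wk4 for 10, and these shares of 46.8%, 31.9% and 21.3% stand beside 41.7%, 34% and 24.3% of all genes. In 13 genes the recombined mean lay above those of all 3 stages and in 7 below, or 27.7% and 14.9%, beside 23.9% and 21.2% of all genes. Of 10 neural and Schwann markers tested, 2 were called higher in recombined tissue than at E13, 5 than at E18 and 8 than at Wk4, with summed signals of 15242 to 43877 in recombined tissue and 3572 to 4608 at Wk4, and their part in the guidance genes' values was not tested.

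**Figure D2:**
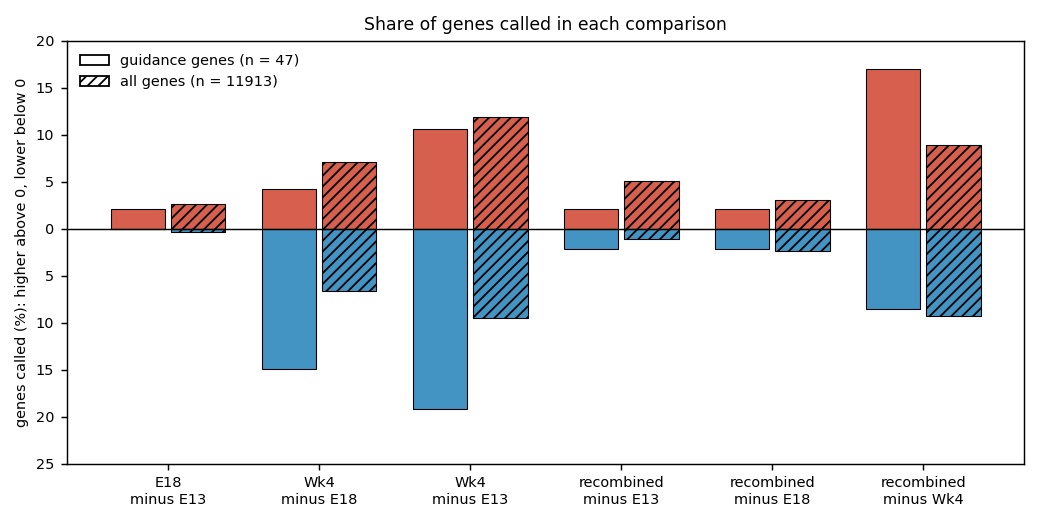
Bars give the share of the 47 guidance genes (plain) and of all 11913 genes (hatched) that were called in each comparison, with genes higher in the first-named group above 0 and lower ones below. Guidance genes called lower made up 14.9% at Wk4 against E18 and 19.1% at Wk4 against E13, beside 6.68% and 9.46% of all genes.

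Promoter sequences were at hand for 41 of the 55 genes. The 250 bases before the annotated start, from RefSeq on the GRCr8 assembly, are shown 5′ to 3′ for 5 genes on which the results below turn: a receptor that fell with age (Robo2), a ligand of that pathway that was higher in culture than at Wk4 (Slit3), an Eph receptor that fell with age (Ephb3), a semaphorin that rose with age (Sema3g) and the plexin that was higher in culture (Plxnc1). Capitals mark the GC box GGGCGG or its reverse complement CCGCCC, the site class read by Sp1-type factors.
Robo2 (chr11:26526413-26526662, minus strand): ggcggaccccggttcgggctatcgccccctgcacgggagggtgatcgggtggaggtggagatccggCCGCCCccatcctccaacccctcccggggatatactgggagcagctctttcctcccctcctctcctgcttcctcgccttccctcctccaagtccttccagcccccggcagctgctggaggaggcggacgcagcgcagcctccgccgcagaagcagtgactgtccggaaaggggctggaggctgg
Slit3 (chr10:20075679-20075928, plus strand): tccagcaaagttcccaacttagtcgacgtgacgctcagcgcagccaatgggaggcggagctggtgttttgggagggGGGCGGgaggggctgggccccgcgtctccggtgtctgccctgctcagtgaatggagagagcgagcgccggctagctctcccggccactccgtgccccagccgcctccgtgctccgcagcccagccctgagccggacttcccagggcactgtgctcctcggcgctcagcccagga
Ephb3 (chr11:93363776-93364025, minus strand): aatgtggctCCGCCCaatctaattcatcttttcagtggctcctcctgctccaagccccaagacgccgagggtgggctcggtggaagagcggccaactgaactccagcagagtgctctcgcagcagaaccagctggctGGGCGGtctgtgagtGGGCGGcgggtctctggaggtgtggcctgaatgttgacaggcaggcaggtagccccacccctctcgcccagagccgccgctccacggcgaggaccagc
Sema3g (chr16:6419775-6420024, plus strand): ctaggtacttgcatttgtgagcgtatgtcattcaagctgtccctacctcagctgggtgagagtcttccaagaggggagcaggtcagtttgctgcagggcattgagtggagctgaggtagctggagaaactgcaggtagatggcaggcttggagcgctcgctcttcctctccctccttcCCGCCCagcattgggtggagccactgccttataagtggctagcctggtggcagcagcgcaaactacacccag
Plxnc1 (chr7:31430606-31430855, minus strand): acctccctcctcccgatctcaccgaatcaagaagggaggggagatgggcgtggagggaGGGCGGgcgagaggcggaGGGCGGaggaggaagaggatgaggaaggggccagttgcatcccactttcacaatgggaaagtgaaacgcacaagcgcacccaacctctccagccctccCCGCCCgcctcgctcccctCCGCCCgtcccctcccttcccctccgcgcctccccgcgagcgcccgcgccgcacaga
The GC box occurred 1 time in Robo2, Slit3 and Sema3g, 3 times in Ephb3 and 4 times in Plxnc1. It was found on either strand in 23 of the 41 guidance promoters (56.1%), beside 40.3% of 18999 promoters of protein-coding genes. The CCAAT box (CCAAT or ATTGG) was in 16 (39.0%, beside 35.5%) and the TATA motif (TATAAA or TTTATA) in 0, beside 12.3%. Matches of different motifs were counted apart even where their ends overlap. Guidance promoters had a median GC content of 61.2%, beside 54.8%, and 22 of them were over 60% GC (53.7%, beside 33.0%). The promoters shown had between 56.8% and 69.2% GC. Of the matched promoters, those of the 6 genes called lower at Wk4 than E13 ran from 48.0% to 69.2%, and those of the 3 called higher from 53.2% to 71.6%. These are descriptions of letters in a window, and no binding was measured.

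Among the slits and robos, the receptor genes Robo1 and Robo2 were lowest in the mature kidney. Robo2 had a signal of 3376 and 5666 in recombined tissue, 8543, 15292 and 10339.7 at E13, 7907, 7994, 7957 and 9689 at E18, and 1249.7, 1031 and 1327 at Wk4. Every Wk4 array was below every other array, and the recombined arrays lay below all E13 and E18 arrays. Robo2 fell at Wk4 against E18 (-2.56 ± 0.19, adjusted p = 4.92e-08) and against E13 (-2.95 ± 0.21, adjusted p = 1.49e-08), a mean signal 9.47 times lower. In recombined tissue it stood -1.28 ± 0.23 against E13 (adjusted p = 0.000772) and -0.89 ± 0.22 against E18, neither of which reached 3-fold, and it was called higher than at Wk4 (1.66 ± 0.23, adjusted p = 2.93e-05). That last call was near the limit and was lost without recombined replicate 2 (1.31) or Wk4 replicate 2 (just under 3-fold), with each array centred on its median (1.50), with quantile normalization (also just under 3-fold) and with the mean of the 3 Robo2 probe sets (0.99). Without recombined replicate 2, Robo2 was called lower in recombined tissue than at E13 (-1.64).

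Robo1, the paralogous slit receptor, followed the same course at lower amplitude. Robo1 had a signal of 1924 and 2342 in recombined tissue, 2257, 3393 and 2999.9 at E13, 1452, 2289, 2061 and 3402 at E18, and 660.3, 631 and 639 at Wk4. The 3 Wk4 arrays lay close together and below all others, and the recombined arrays fell among the embryonic ones. It fell at Wk4 against E13 (-1.77 ± 0.23, adjusted p = 9.78e-06), and its difference at Wk4 against E18 (-1.44 ± 0.22), under 3-fold, was called without E18 replicate 1 (-1.61) or with the embryonic array set as a covariate (-1.59). Robo3, a divergent family member, was the exception. Robo3 had a signal of 227 and 423 in recombined tissue, 285, 135 and 240.1 at E13, 299.7, 136, 42.1 and 65.1 at E18, and 1340.2, 1484 and 34.4 at Wk4. It was high on 2 Wk4 arrays and at its lowest on the third, and no comparison was called, while without Wk4 replicate 3 it was called higher at Wk4 than at E18 (2.09) and E13 (1.79). It passed the filter through 2 Wk4 arrays alone.

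The ligand gene Slit3 had its highest signals in recombined tissue. Slit3 had a signal of 4047 and 4697 in recombined tissue, 2901, 2372 and 1470.2 at E13, 2108, 2461, 2435 and 1536 at E18, and 238, 753 and 1024 at Wk4. Both recombined arrays were above every kidney array, and the Wk4 arrays were below every other array. Slit3 was higher in recombined tissue than at Wk4 (2.40 ± 0.34, adjusted p = 3.31e-05), a call that held under all 24 alternatives run, while its differences from E13 (0.92 ± 0.34, adjusted p = 0.0534) and E18 (0.96 ± 0.32, adjusted p = 0.0379) were under 3-fold. Of 8 stroma and matrix markers measured, 4 were called higher in recombined tissue than at E13, 2 than at E18 and 6 than at Wk4. Their summed signals were 455455 to 562482 in recombined tissue, 149681 to 174927 at E13, 168294 to 198891 at E18 and 64227 to 97574 at Wk4. The summed leukocyte markers and the summed neural and Schwann markers were likewise above every kidney array on both recombined arrays. The part of any of these cells in the Slit3 result was not tested. The lower Slit3 values at Wk4 than at E18 (-1.44 ± 0.28) and E13 (-1.48 ± 0.30) were under 3-fold and crossed it when a single array was left out. They were -1.72 against E18 without Wk4 replicate 3, and -1.76, -1.59 and -1.72 against E13 without Wk4 replicate 3, Wk4 replicate 2 or E13 replicate 3. Slit2, the main ligand of Robo2 in the mouse kidney, was not called anywhere. Slit2 had a signal of 3762 and 8609.6 in recombined tissue, 3548, 6060.1 and 3509 at E13, 5447, 6227, 5471 and 4137 at E18, and 1539.5, 1662 and 2196 at Wk4. The Wk4 arrays were again the lowest, with a difference of -1.43 ± 0.25 against E18 (adjusted p = 0.00021), and recombined replicate 2 had more than any kidney array. Against Wk4, recombined tissue stood at 1.54 ± 0.30, and this was called without recombined replicate 1 (2.11) or Wk4 replicate 3 (1.68). Slit1 was dim, at 391 ± 147 in recombined tissue, 350.4 ± 182 at E13, 527 ± 189.7 at E18 and 169 ± 65.8 at Wk4, and was not called.

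**Figure D3:**
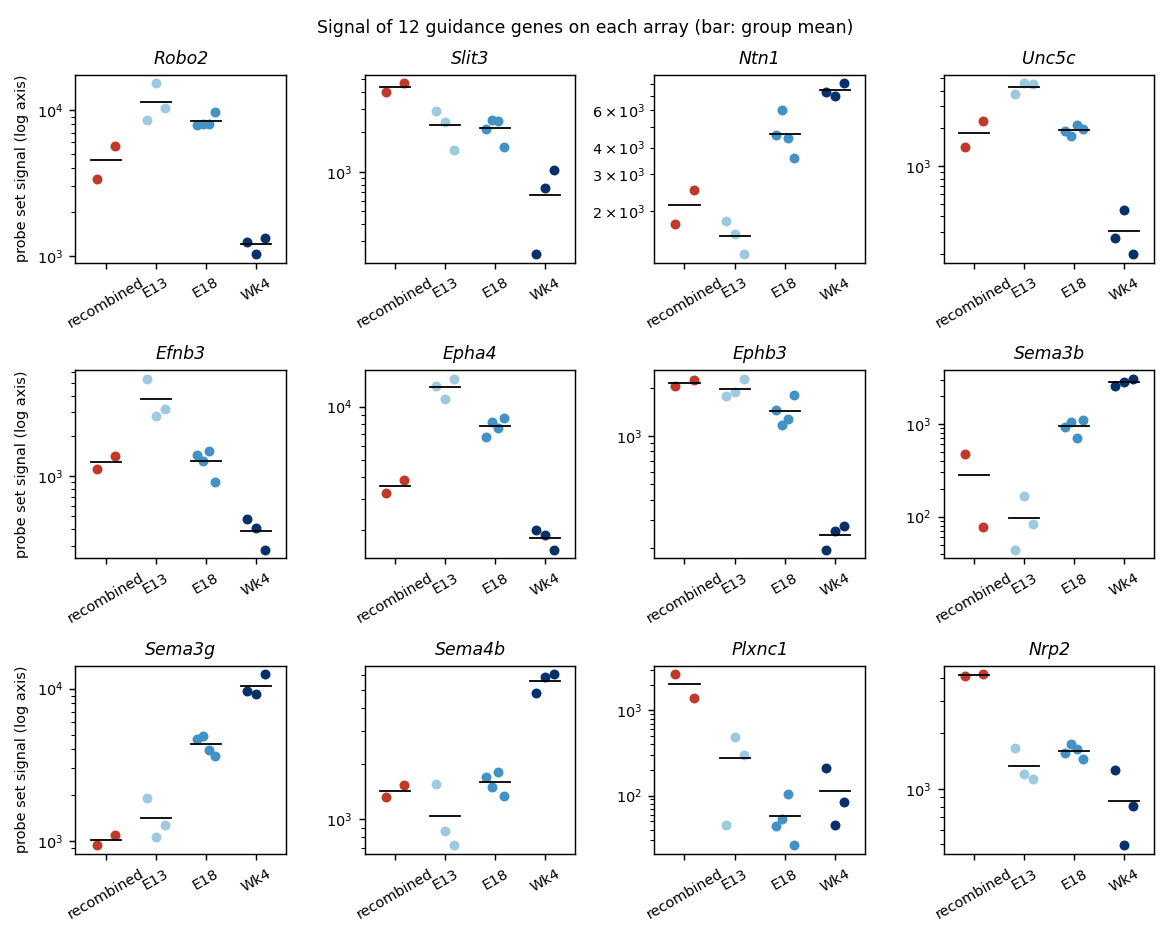
Points are the signal on single arrays (log axis) of 12 guidance genes, and bars are group means, with recombined tissue at the left and the kidney stages in time order. Robo2, Unc5c, Efnb3, Epha4 and Ephb3 have their 3 lowest arrays at Wk4, Sema3b, Sema3g, Sema4b and Ntn1 their 3 highest, and Plxnc1, Nrp2 and Slit3 are highest on both recombined arrays.

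The netrin ligand gene Ntn1 rose and the receptor gene Unc5c fell with age. Ntn1 had a signal of 1745 and 2537 in recombined tissue, 1795, 1559 and 1259 at E13, 4584, 6014, 4434 and 3584 at E18, and 7360.1, 6979 and 8070.1 at Wk4. The E13 arrays were below all E18 arrays, which were below all Wk4 arrays, and the recombined arrays overlapped E13 and lay below E18. Ntn1 rose at Wk4 against E13 (2.11 ± 0.19, adjusted p = 1.63e-07), a mean signal 4.86 times as high. Of the 3 Ntn1 probe sets on the array, only the one used here passed the filter, so its results rest on a single probe set. Most of this difference lay between E13 and E18 (1.43 ± 0.17, adjusted p = 3.65e-05), although that step itself was under 3-fold on this scale. With no pseudocount the step was called (1.59). Recombined tissue was lower than Wk4 in Ntn1 (-1.70 ± 0.21, adjusted p = 7.79e-06; -1.46 and no longer called without recombined replicate 1), and it differed from E13 by 0.41 ± 0.21 (adjusted p = 0.16).

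Unc5c, a netrin receptor that mediates repulsion, showed the widest fall of all 47 genes between E13 and Wk4. Unc5c had a signal of 1415 and 2279 in recombined tissue, 3761, 4591 and 4547 at E13, 1922, 1748, 2127 and 1993 at E18, and 270.2, 447 and 201 at Wk4. E13, E18 and Wk4 did not overlap, E13 being highest and Wk4 lowest, and the recombined arrays lay on either side of the E18 arrays. It fell at Wk4 against E18 (-1.96 ± 0.18, adjusted p = 3.78e-07) and against E13 (-3.00 ± 0.19, adjusted p = 5.71e-09), a mean signal 14.0 times lower, and a second Unc5c probe set gave -2.53 at Wk4 against E13. Recombined tissue differed from E18 by -0.09 ± 0.21 and was called higher than Wk4 (1.87 ± 0.22). That call was lost without recombined replicate 2 (1.57) and with 4 times the pseudocount (1.07). Unc5b, a family member known for its role in vessels, stood at 3555 ± 854 in recombined tissue, 4486 ± 443 at E13, 3709 ± 433 at E18 and 1604 ± 702 at Wk4. Its difference at Wk4 against E13 was -1.40 ± 0.22 (adjusted p = 5.47e-05), under 3-fold except without Wk4 replicate 1 (-1.69). Dcc and Unc5a were among the genes that did not pass the filter. Dcc had a signal of 149 and 635 in recombined tissue, 268, 207 and 608 at E13, 237, 246, 128 and 262 at E18, and 70.3, 441 and 106 at Wk4. Dcc overlapped between all groups, and Unc5a had a signal of at most 279 on any array.

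Of the 5 ephrin genes 3 fell at Wk4. Efnb3, a transmembrane ephrin, was the ephrin with the widest difference. Efnb3 had a signal of 1125 and 1417 in recombined tissue, 5363, 2821 and 3189 at E13, 1432, 1287, 1539 and 895 at E18, and 473, 407 and 282 at Wk4. The E13 arrays were above all others, the recombined and E18 arrays overlapped, and the Wk4 arrays were lowest. Efnb3 fell at Wk4 against E13 (-2.59 ± 0.24, adjusted p = 2.36e-07), and the differences of -1.35 ± 0.22 at E18 against E13 and -1.24 ± 0.22 at Wk4 against E18 had adjusted p-values of 0.000507 and 0.000247 but were under 3-fold. With the embryonic array set as a covariate the difference at E18 against E13 was called (-1.62). Efnb3 in recombined tissue was -1.35 ± 0.26 against E13 (adjusted p = 0.00134) and -0.00 ± 0.25 against E18.

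Efna4, an ephrin held to the membrane by a lipid anchor, fell at Wk4 as well. Efna4 had a signal of 767 and 1236 in recombined tissue, 2667, 2345 and 2360.1 at E13, 1559, 1700.4, 1473 and 1321 at E18, and 398, 608 and 72.3 at Wk4. The E13 arrays were highest and the Wk4 arrays lowest, with Wk4 replicate 3 far below the other two. It was called at Wk4 against E13 (-2.22 ± 0.27, adjusted p = 5.97e-06). Against E18 the difference was -1.60 ± 0.26 (adjusted p = 9.52e-05), just over 3-fold, and it was under 3-fold without Wk4 replicate 3 (-1.21) or E18 replicate 2 (-1.55), and with quantile normalization (-1.55), median centring (-1.55) or the array set as a covariate (-1.55). Efna5, a ligand of the same class, gave a similar order. Efna5 had a signal of 2108 and 6209 in recombined tissue, 3285, 4169 and 3367 at E13, 2486, 2275, 2111 and 2901 at E18, and 1229, 1030.0 and 758 at Wk4. Recombined replicate 2 was the highest of all arrays, replicate 1 lay just under the E18 arrays, and Wk4 was lowest. Efna5 fell at Wk4 against E13 (-1.61 ± 0.28, adjusted p = 0.000151) and was higher in recombined tissue than at Wk4 (1.64 ± 0.31, adjusted p = 0.000463). The first call was lost without E13 replicate 2 (-1.51) or Wk4 replicate 3 (-1.47), with quantile normalization (-1.56) and with the array set as a covariate (-1.57). The call in recombined tissue was lost without recombined replicate 2 (0.92) or Wk4 replicate 3 (1.49), with quantile normalization (1.55) and with median centring (1.48).

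Efnb1 and Efna1 were not called. Efnb1, a ligand of EphB receptors, had 3750.0 ± 63.5 in recombined tissue, 4226 ± 967 at E13, 6836 ± 938 at E18 and 2667 ± 212 at Wk4. Its difference at Wk4 against E18 was -1.27 ± 0.15 (adjusted p = 5.22e-06). Efna1, in contrast to the other ephrins, had its highest mean in the mature kidney, with 1281 ± 567 in recombined tissue, 1628 ± 180.4 at E13, 2076 ± 444 at E18 and 2600.2 ± 195 at Wk4. Its differences were 0.60 ± 0.21 at Wk4 against E13 and -0.94 ± 0.23 in recombined tissue against Wk4, with adjusted p-values of 0.0229 and 0.00371.

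Epha4, a receptor that binds ephrins of both classes, was the guidance gene called lower in recombined tissue than at E13. Epha4 had a signal of 3270.1 and 3842 in recombined tissue, 13099, 11104 and 14383 at E13, 6759, 8214, 7582 and 8596 at E18, and 2015, 1880.3 and 1561 at Wk4. The E13, E18, recombined and Wk4 arrays formed 4 bands without overlap, in that order from high to low. Epha4 was lower in recombined tissue than at E13 (-1.78 ± 0.16, adjusted p = 1.63e-06), and its difference against E18 was -1.07 ± 0.15 (adjusted p = 0.000102). It fell at Wk4 against E18 (-1.95 ± 0.13, adjusted p = 1.41e-08) and E13 (-2.65 ± 0.14, adjusted p = 6.96e-10). Both nephron progenitor markers, Eya1 and Meox1, were also called lower in recombined tissue than at E13, with summed signals of 4086 to 7451 and 17133 to 24575, and their part in the Epha4 result was not tested. Of 3 other Epha4 probe sets kept, 2 gave -1.75 and -1.84 in recombined tissue against E13 and 1 gave -0.61, so that with the mean of all 4 the difference was -1.49 there and -1.42 at Wk4 against E18, both under 3-fold.

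Epha7 and Epha3, further receptors of the A class, and Ephb3 of the B class also fell at Wk4. Epha7 had a signal of 814 and 905 in recombined tissue, 1463, 1999 and 2387 at E13, 1435, 1588, 1412 and 2195 at E18, and 491, 22.5 and 281 at Wk4. The Wk4 arrays were below all others and differed widely among themselves, and the recombined arrays lay between Wk4 and E18. Epha7 fell against E18 (-1.94 ± 0.27) and E13 (-2.14 ± 0.29), and was under 3-fold against E18 without Wk4 replicate 2 (-1.56) and, with the mean of both Epha7 probe sets, in both (-1.44 and -1.56). Epha3 had a signal of 1584 and 1875 in recombined tissue, 1311, 1107 and 1504 at E13, 2805, 1977, 2969.8 and 3236 at E18, and 541, 709 and 376 at Wk4. Here E18 was the top of the course, above all E13 arrays. Epha3 fell at Wk4 against E18 (-1.89 ± 0.19, adjusted p = 8.76e-07), and its differences of 0.92 ± 0.19 at E18 against E13 and -0.97 ± 0.20 at Wk4 against E13 were under 3-fold.

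Ephb3, whose promoter is given above, overlapped between culture and E13. Ephb3 had a signal of 2038 and 2216 in recombined tissue, 1764, 1879 and 2274 at E13, 1441, 1168, 1271 and 1796 at E18, and 196, 256 and 276 at Wk4. The Wk4 arrays were far below all others, while the recombined arrays overlapped E13 and lay above E18. It fell at Wk4 against E18 (-1.71 ± 0.16, adjusted p = 5.74e-07) and E13 (-2.12 ± 0.18, adjusted p = 8.15e-08), and was higher in recombined tissue than at Wk4 (2.23 ± 0.20, adjusted p = 2.81e-07), a mean signal 8.76 times as high. Recombined tissue differed from E13 by 0.10 ± 0.20 and from E18 by 0.52 ± 0.19, with adjusted p-values of 0.743 and 0.0515.

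The other Eph receptors were not called. Ephb4, known as a receptor of venous endothelium, had 3544 ± 505 in recombined tissue, 7189.7 ± 1987 at E13, 6947 ± 889 at E18 and 5001 ± 444 at Wk4. Its differences in recombined tissue were -0.94 ± 0.19 against E13 and -0.92 ± 0.18 against E18, with adjusted p-values of 0.00192 and 0.00174. Beside it, of 9 endothelial markers measured, 4 were called lower in recombined tissue than at E13, 7 than at E18 and 8 than at Wk4, and 0 were at a signal of 0. Their summed signal ran from 6272 to 14970 in recombined tissue, from 31370 to 41542 at E13, from 41736 to 50884 at E18 and from 74118 to 83480 at Wk4. The part of these cells in the result was not tested, and in whole tissue fewer cells of a type and less RNA per cell cannot be told apart. Epha2, Epha6 and Ephb6 differed by between -1.19 and 1.23 over the 6 comparisons. Of the receptors below the filter, Ephb1 had 85.3 ± 33.4 in recombined tissue, 217 ± 176 at E13, 464 ± 72.6 at E18 and 140.1 ± 97.2 at Wk4, and Epha5, Epha8 and Epha10 were at most 339.6, 163 and 261 on any array.

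The semaphorin calls between stages were all rises. At Wk4 against E13, 4 of 15 were called higher and 0 lower, or 26.7% and 0%, where 11.9% and 9.46% of all genes were. By limma, 6 were higher and 2 lower at an adjusted p under 0.05, and 6 and 3 at an unadjusted p under 0.05. At Wk4 against E18, 2 were called higher and 0 lower, or 13.3% and 0%, where 7.1% and 6.68% of all genes were. There 5 were higher and 3 lower at an adjusted p under 0.05 by limma. All the lower values were under 3-fold, and the share of all genes at these p limits alone was not counted. The median difference of the 15 was 0.05 at Wk4 against E13, beside -1.08 for the 8 Eph receptors, -1.61 for the 5 ephrins and -1.31 for the 6 slits and robos.

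Sema3b, a secreted semaphorin, was the only guidance gene called at E18 against E13. Sema3b had a signal of 479.7 and 78.2 in recombined tissue, 44.3, 167 and 82.6 at E13, 918, 1041, 697 and 1104 at E18, and 2548, 2823 and 3077 at Wk4. E13, E18 and Wk4 stood apart without overlap, each later stage higher, and both recombined arrays were below E18, with replicate 1 well above replicate 2. Sema3b rose at E18 against E13 (1.72 ± 0.24, adjusted p = 0.000148) and at Wk4 against E13 (3.08 ± 0.26, adjusted p = 1.03e-07), which was the widest rise of the 47 genes. It was lower in recombined tissue than at Wk4 (-2.59 ± 0.29, adjusted p = 3.33e-06), and its difference of -1.23 ± 0.28 against E18, under 3-fold, was called without recombined replicate 1 (-1.78). Its E13 signals lie under the pseudocount, so these differences understate the ratio of the signals. Sema3b passed the filter through E18 and Wk4 arrays alone, and was therefore tested only because it was high there.

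Sema3g, a secreted ligand that acts through neuropilin-2, had the same order with a wider gap to culture. Sema3g had a signal of 943 and 1093 in recombined tissue, 1905, 1071 and 1282 at E13, 4698, 4924, 3969 and 3643 at E18, and 9663, 9178 and 12449 at Wk4. Recombined and E13 arrays overlapped, and every E18 and Wk4 array was above them. Sema3g rose at Wk4 against E13 (2.68 ± 0.19, adjusted p = 1.33e-08), a mean signal 7.35 times as high. The steps of 1.46 ± 0.18 at E18 against E13 and 1.22 ± 0.18 at Wk4 against E18 were each under 3-fold. With no pseudocount the step at E18 against E13 was called (1.63). In recombined tissue it was lower than at E18 (-1.82 ± 0.20, adjusted p = 1.16e-05) and at Wk4 (-3.04 ± 0.21, adjusted p = 2.02e-08). A second, dimmer Sema3g probe set gave -0.34 and -1.08 for these comparisons, and with the mean of both the difference from E18 was -1.08. The endothelial markers given above shared only part of this pattern. In culture, 7 of the 9 were called lower against E18 and 8 against Wk4, as Sema3g was. Against E13 they differed from Sema3g, whose arrays overlapped. There 4 of them were called lower, with summed signals of 6272 to 14970 in recombined tissue and 31370 to 41542 at E13. Recombined tissue was also lower than E18 in 2 of 4 podocyte markers and lower than Wk4 in 2, with summed signals of 8798 to 9871 in recombined tissue, 6652 to 8472 at E13, 15189.9 to 18459 at E18 and 15509 to 17868 at Wk4. The part of either cell type in the Sema3g result was not tested.

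The membrane-bound semaphorins Sema4a and Sema4b rose late. Sema4a had a signal of 1994 and 1820.3 in recombined tissue, 1305, 1234 and 1369 at E13, 1566, 1474, 1622 and 1656 at E18, and 5716, 5670.4 and 5184 at Wk4. The 3 Wk4 arrays were far above all others, and the recombined arrays lay just above the embryonic ones. Sema4a rose at Wk4 against E18 (1.65 ± 0.12, adjusted p = 2.78e-08) and E13 (1.88 ± 0.13, adjusted p = 9.33e-09), and its difference in recombined tissue against Wk4 was -1.41 ± 0.14, under 3-fold (adjusted p = 1.08e-06). Sema4b had a signal of 1318 and 1529 in recombined tissue, 1555, 866 and 727 at E13, 1700.1, 1497, 1815 and 1331 at E18, and 4806, 5868 and 6097 at Wk4. Again Wk4 stood alone at the top, and the recombined arrays fell within the range of the embryonic ones. Sema4b rose at Wk4 against E18 (1.66 ± 0.19, adjusted p = 4.15e-06) and E13 (2.19 ± 0.21, adjusted p = 3.29e-07), and it was lower in recombined tissue than at Wk4 (-1.79 ± 0.23, adjusted p = 1.37e-05).

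Of the 11 tested semaphorins with no call, Sema3f and Sema3c had the widest differences. Sema3c, a secreted ligand, had 9861 ± 237 in recombined tissue, 4141 ± 318 at E13, 8364 ± 1111 at E18 and 3909.5 ± 110.1 at Wk4. Its differences from E13 were 0.96 ± 0.12 at E18 and 1.20 ± 0.14 in recombined tissue, both under 3-fold, with adjusted p-values of 4.01e-05 and 2.06e-05. Sema3f, which binds neuropilin-2, had 1339 ± 328 in recombined tissue, 2467 ± 555 at E13, 2669.7 ± 748 at E18 and 817 ± 242 at Wk4. Its difference at Wk4 against E18 was -1.42 ± 0.24 (adjusted p = 0.000141), and it was called without E18 replicate 4 (-1.63). Sema6a, a membrane-bound ligand of A plexins, had 3478 ± 1236 in recombined tissue, 7039.9 ± 514 at E13, 3759 ± 540.0 at E18 and 3940.2 ± 730.2 at Wk4, with differences from E13 of -1.00 ± 0.21 in culture and -0.87 ± 0.17 at E18. Sema3d, Sema3e, Sema4f, Sema4g, Sema5a, Sema6b, Sema6c and Sema6d differed by between -0.56 and 0.94 over the 6 comparisons. Sema3a and Sema4d did not pass the filter. Sema3a had a signal of 159 and 508 in recombined tissue, 42.1, 65.4 and 82.6 at E13, 112, 380.4, 99.1 and 715 at E18, and 45.7, 88.3 and 63.2 at Wk4. Sema3a overlapped between recombined tissue and E18, and Sema4d was at most 301 on any array.

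Of the 10 plexins and neuropilins, 3 were called in recombined tissue, and between stages 0 met both limits of a call. Against Wk4 these 3 were 30% of the family, where 8.93% of all genes were called higher. Against E13 and E18 the 1 called was 10%, where 5.03% and 3.1% of all genes were called higher. At Wk4 against E13, 7 were lower and 1 higher at an adjusted p under 0.05 by limma, all under 3-fold. The share of all genes at that p limit alone was not counted. Plxnc1, the plexin that binds the semaphorin Sema7a and is known from leukocytes, was higher in recombined tissue than at every stage. Plxnc1 had a signal of 2659 and 1397 in recombined tissue, 45.3, 489 and 298 at E13, 44.3, 52.6, 104 and 26.3 at E18, and 209, 45.0 and 83.3 at Wk4. Both recombined arrays were above every kidney array, and the kidney arrays were dim and scattered. Plxnc1 was higher in recombined tissue than at E13 (2.10 ± 0.37, adjusted p = 0.000561), E18 (2.76 ± 0.35, adjusted p = 4.23e-05) and Wk4 (2.55 ± 0.37, adjusted p = 3.77e-05), and a second probe set gave 1.72, 1.63 and 1.55. It passed the filter through the 2 recombined arrays alone, and was therefore tested only because it was high there. Leukocyte markers were also higher in culture. Of 10 tested, 10 were called higher in recombined tissue than at E13, 10 than at E18 and 9 than at Wk4. No marker of the 11 measured was at a signal of 0. Their summed signal was 235435 in recombined replicate 1 and 128025 in replicate 2. It was 6290 to 9260 at E13, 17960.4 to 24133 at E18 and 43837 to 49236 at Wk4. Over these stages Plxnc1 did not rise with that sum, with means of 277, 56.9 and 112. The neural and Schwann sum was also higher in recombined replicate 1 (43877) than in replicate 2 (15242). The part of either set of cells in the Plxnc1 result was not tested.

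Nrp2, the neuropilin of Sema3f and Sema3g, also had its highest signals in culture. Nrp2 had a signal of 4079 and 4196 in recombined tissue, 1673, 1201 and 1124 at E13, 1565, 1748, 1643 and 1459 at E18, and 1266, 494 and 805 at Wk4. Both recombined arrays were above all kidney arrays. The same held for the summed stroma and matrix, leukocyte, and neural and Schwann markers, whose part was not tested. Nrp2 was higher in recombined tissue than at Wk4 (2.03 ± 0.25, adjusted p = 7.12e-06), and its differences of 1.47 ± 0.25 against E13 and 1.24 ± 0.23 against E18 had adjusted p-values of 0.00039 and 0.00116 but were under 3-fold. Without E13 replicate 1 the difference from E13 was called (1.62), and with no pseudocount it was called as well (1.66). Plxna4, a receptor of secreted semaphorins, was higher in recombined tissue than at Wk4 as well. Plxna4 had a signal of 1656 and 1909.5 in recombined tissue, 1096, 1312 and 969 at E13, 1067, 555, 866 and 202 at E18, and 63.2, 373 and 517 at Wk4. The recombined arrays were above all others, but Wk4 and E18 arrays were spread widely. The difference was 1.89 ± 0.40 (adjusted p = 0.00114), or 1.53 without Wk4 replicate 1 and 1.11 with the mean of both Plxna4 probe sets, both under 3-fold.

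**Figure D4:**
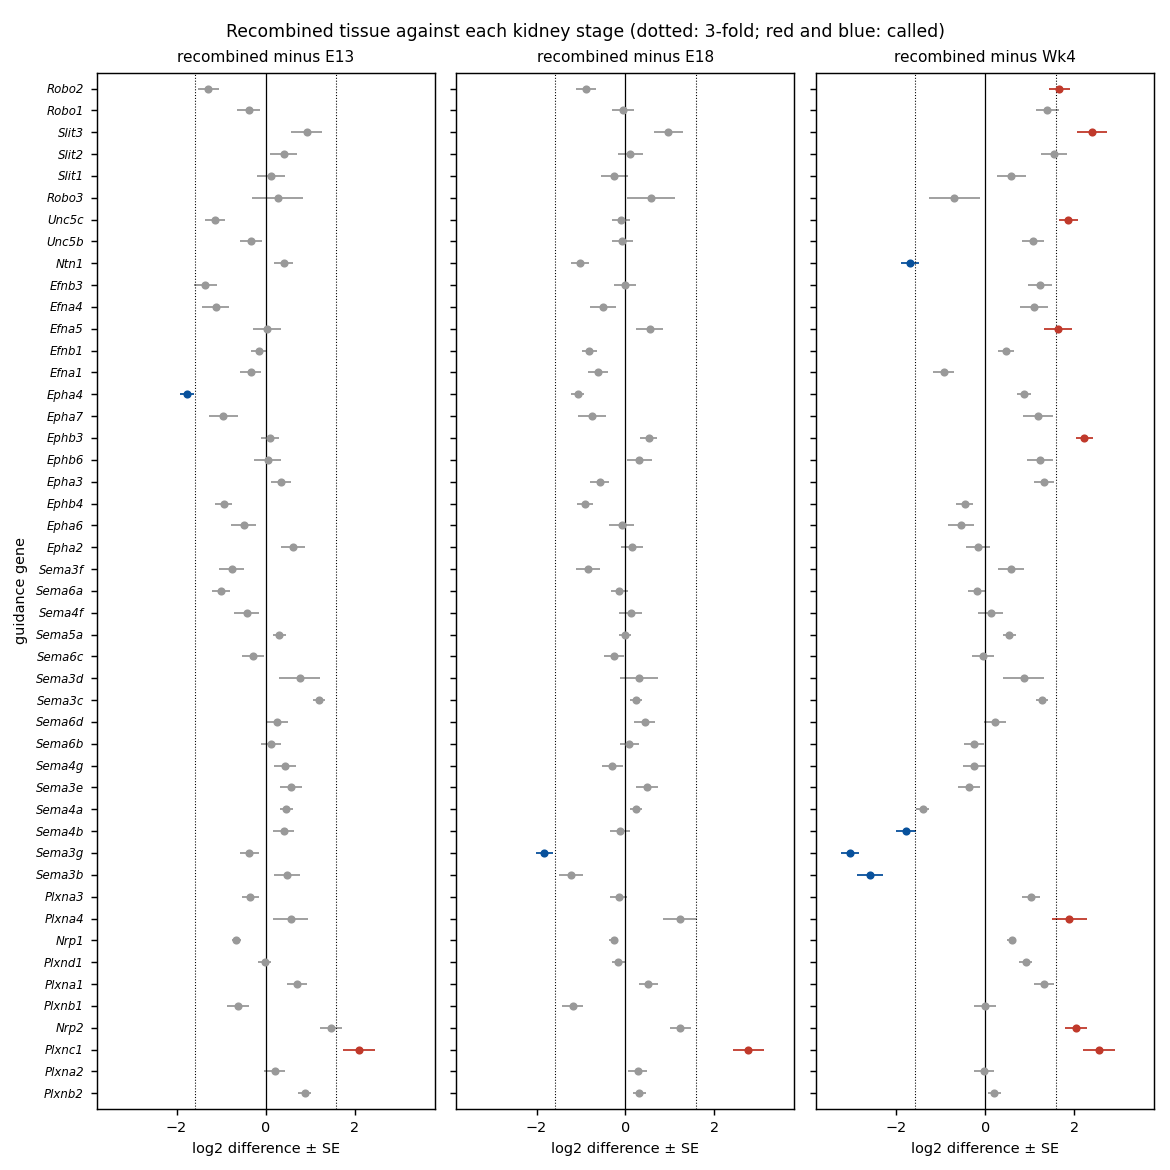
Points are the differences of recombined tissue from E13, E18 and Wk4 on the log2(signal + 271) scale with their SE for the 47 tested guidance genes, red where called higher and blue where called lower, and dotted lines mark 3-fold. Against E13 only Plxnc1 and Epha4 and against E18 only Plxnc1 and Sema3g pass, while 12 genes pass against Wk4.

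Nrp1, the neuropilin of the secreted Sema3a and a VEGF co-receptor, was not called, with 18475 ± 2102 in recombined tissue, 29187 ± 426 at E13, 22209.5 ± 939 at E18 and 12125 ± 728 at Wk4. Its Wk4 difference of -1.25 ± 0.09 from E13 was under 3-fold (adjusted p = 2.96e-08). Plxnd1, a receptor known from endothelium, had 3328 ± 180.1 in recombined tissue, 3367 ± 28.0 at E13, 3761 ± 279 at E18 and 1662 ± 261 at Wk4. In recombined tissue it differed by -0.02 ± 0.15 from E13 and -0.16 ± 0.14 from E18. Of the 9 endothelial markers, 4 were called lower there against E13 and 7 against E18, and their part in the Plxnd1 values was not tested. Plxnb2, a receptor of class 4 semaphorins, had 20488 ± 2143 in recombined tissue, 11088 ± 2149 at E13, 16421 ± 1103 at E18 and 17819 ± 1004 at Wk4. Plxnb1, its paralogue, had 1592 ± 467 in recombined tissue, 2619 ± 823 at E13, 3945 ± 624 at E18 and 1601 ± 348 at Wk4, with a difference of -1.19 ± 0.23 in recombined tissue against E18 (adjusted p = 0.00158). Plxna1, Plxna2 and Plxna3 differed by between -1.37 and 1.33 over the 6 comparisons.

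For 24 of the 55 genes the array holds more than 1 probe set, and in 19 more than 1 was kept. Between Wk4 and E13, the 5 called genes with further kept probe sets had 8 of them, all 8 with the same sign and 4 also called. Between Wk4 and E18 again 8 of 8 had the same sign and 2 were called, and for recombined tissue against E13, E18 and Wk4 the same sign was found in 4 of 4, 2 of 2 and 6 of 6, with 3, 1 and 0 called.

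Other genes of guidance signalling, from a list of 56 ligands, co-receptors and effectors of which 46 were tested, had calls in 5 of the 6 comparisons. At Wk4 against E13, 3 were called higher and 6 lower (beside 11.9% and 9.46% of all genes), at Wk4 against E18 2 and 3 (7.1% and 6.68%), and at E18 against E13 1 and 0 (2.65% and 0.369%), with median differences of -0.34, -0.47 and 0.02. In recombined tissue 0 were called against E13, where 11 were higher and 11 lower at an unadjusted p under 0.05 by limma. Some of these passed the adjusted p but were under 3-fold, such as Kdr (-1.50, adjusted p = 0.0017) and Mical2 (1.46, adjusted p = 0.00144). Against E18 0 were higher and 2 lower, where 3.1% and 2.37% of all genes were, and against Wk4 8 were higher and 4 lower, where 8.93% and 9.33% were. Vav3 was the one called at E18 against E13, with 8456 ± 488 at E18 and 1851 ± 347 at E13 (2.05 ± 0.15, adjusted p = 2.22e-07). At Wk4 against E13 the widest rises were those of Ablim3, an actin-binding protein, with 4097 ± 618 at Wk4 and 464 ± 149.8 at E13 (2.58 ± 0.20, adjusted p = 3.04e-08), and Ngef, an Eph-linked exchange factor (2.12 ± 0.22, adjusted p = 1.07e-06). The widest falls there were those of Rgma, a ligand of neogenin (-2.35 ± 0.33, adjusted p = 2.01e-05), and Crmp1, a mediator of semaphorin signals (-2.12 ± 0.27, adjusted p = 8.35e-06). Against E18, Ablim3 (2.28 ± 0.18, adjusted p = 8.15e-08) and Ngef (1.95 ± 0.21, adjusted p = 1.76e-06) rose at Wk4, and Flrt2, a ligand of Unc5 receptors (-2.19 ± 0.15, adjusted p = 1.77e-08), and Tiam1, a Rac exchange factor (-1.67 ± 0.22, adjusted p = 1.26e-05, or -1.37 and not called without Wk4 replicate 3), fell.

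In recombined tissue against Wk4, Rgma (2.93 ± 0.37, adjusted p = 1.02e-05) and Flrt2, with 10651 ± 612 in recombined tissue and 1209 ± 199 at Wk4 (2.89 ± 0.18, adjusted p = 7.58e-09), were the genes furthest above, and Ablim3 (-2.29 ± 0.22, adjusted p = 6.13e-07) and Vav3 (-1.82 ± 0.18, adjusted p = 6.97e-07) the furthest below. Vav3 (-1.81 ± 0.17, adjusted p = 2.36e-06) and the VEGF receptor gene Kdr (-1.75 ± 0.29, adjusted p = 0.000392) were those called lower than at E18. Both of these calls were lost without recombined replicate 1, where Kdr stood at -1.00 and Vav3 at -1.55, and without it Vav3 was not called against Wk4 either (-1.56). Kdr is itself one of the 9 endothelial markers.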

How the data were processed

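Total RNA of 12 samples was labelled as biotinylated cRNA for Affymetrix rat arrays, as the labels' protocols say. A linear intensity per probe set was deposited, for which the submitters' processing notes name GCOS; which version or algorithm was not given in the sources used here, nor were detection calls used. Trimmed by 2% at each end, every array had a mean of 2500.7, so arrays had been scaled to a common mean, and a change in total RNA per cell would not show. Precision is limited by how many arrays there are.

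Of 31042 probe sets, 57 controls were left out, and genes were named only from the 20826 probe sets with 1 symbol in the platform annotation. Values were used as log2(intensity + 271), where 271 is the 25th percentile of all deposited values. Probe sets above the 40th percentile of their array on at least 2 arrays were kept (22599). All 12 arrays entered 1 fit with limma 3.58.1 (R 4.3.3; lmFit, eBayes with an intensity trend, 8 residual degrees of freedom), with two-sided tests and p-values adjusted by Benjamini-Hochberg over these probe sets. A check of the fit on simulated data drew every array independently, so it does not cover the shared variation of the embryonic arrays. Each gene was read from its probe set with the highest mean. Calls needed an adjusted p under 0.05 and at least 3-fold.

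Members, marker lists and the list of other guidance genes were chosen with earlier results of these data known. Values on every array are given for Robo2, Ntn1 and up to 5 called genes a family with the largest differences; Robo3, Slit2, Dcc and Sema3a were added after their values were seen. Of the other guidance genes the 2 with the largest called difference in each direction and comparison are named. Promoters were matched by gene in a RefSeq table of the GRCr8 assembly. Alternatives were the pseudocount, the filter, the normalization, the fold, the trend, the arrays fitted, the array set (E13 replicate 1 with E18 replicates 1 to 3, against the other embryonic arrays) as a covariate, a replicate block, averaging all probe sets of a gene, and leaving out each array.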

Additional observations from a re-analysis of the deposited data

Results flagged for a closer look

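In E18, the one group of a size at which single arrays were tested, all 55 guidance genes were screened for an array far from the other 3, and 3 genes were marked; chance marks about 1 in 20. Robo2 had 9689 in E18 replicate 4, against 7907 to 7994 in the other 3 arrays, so that the gap made up 0.946 of the range. Ephb6 had 631 in E18 replicate 4, against 763 to 784 (0.871 of the range). Dcc, which did not pass the filter, had 128 in E18 replicate 3, against 237 to 262 (0.836 of the range). Robo2 stayed called at Wk4 against E18 without E18 replicate 4, the array that also stands apart from E18 replicates 1 to 3 in its correlations with the E13 arrays.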

How the results depend on the processing

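Of the 40 called differences of guidance genes, 11 stayed called under all 24 alternatives and 0 reversed; 17 were lost with 4 times the pseudocount alone and 12 under another alternative. The highest adjusted p of the 40 under any alternative was 0.0352, so the losses came through the 3-fold limit. With no pseudocount all 40 stayed called, and calls numbered 3 guidance genes and 1038 probe sets at E18 against E13, 16 and 3990 at Wk4 against E18, 19 guidance genes in recombined tissue against Wk4, and 1732 and 1594 probe sets in recombined tissue against E13 and E18. With 4 times the pseudocount, guidance genes and probe sets called were 0 and 188 at E18 against E13, 2 and 1421 at Wk4 against E18, 8 and 2300 at Wk4 against E13, and in recombined tissue 0 and 495 against E13, 0 and 418 against E18, and 2 and 1877 against Wk4, with 9 guidance genes called at least once. At 2-fold these were 5 and 1503, 24 and 5776, 22 and 7867, 9 and 2841, 8 and 2552, and 24 and 6886 in the same order, with 32 called at least once. The 60th percentile filter dropped Plxnc1 and left 1 guidance gene in recombined tissue against E13 and 1 against E18. Averaging all probe sets of a gene also left 1 and 1, but there Plxnc1 stayed called. The calls lost by averaging were Epha4 against E13 (-1.49) and Sema3g against E18 (-1.08). The array set as a covariate gave 2 at E18 against E13. Leaving out single arrays gave 1 to 2 guidance genes and 522 to 590 probe sets at E18 against E13, 8 to 10 and 2515 to 2701 at Wk4 against E18, 13 to 15 and 3994 to 4227 at Wk4 against E13, and in recombined tissue 2 to 3 and 1021 to 1429 against E13, 2 to 3 and 927 to 1289 against E18, and 9 to 12 and 3419 to 3583 against Wk4. The cause of these shifts was not tested.

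Centring each array on its median moved the median difference of all probe sets in recombined tissue against E13 by more than 0.1, to -0.20 from -0.00, and the share of higher calls to 68.9% from 81.2%; at 2-fold that share was 69.1%. It also moved this median against E18, to -0.11 from -0.00, and against Wk4, to 0.03 from 0.19, with the share of higher calls against Wk4 at 43.0% and not 51.8%, so that lower calls became the more frequent. The same held with quantile normalization (47.6% higher), 4 times the pseudocount (42.0%) and the 60th percentile filter (49.7%). Under the other alternatives counted by probe set, higher calls stayed the more frequent, at up to 58.2% (2-fold). The replicate numbers did not pair the samples: over 15 pairs with the same number, the correlation of deviations ran from -0.17 to 0.31 and 1 was over 0.1. With a replicate block, in which E18 replicate 4 has no partner, 1 guidance gene was called at E18 against E13 and 10 at Wk4 against E18 (Sema3f added at -1.63), and Efna5 in recombined tissue against Wk4 was under 3-fold at 1.56.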
